A study of Mus musculus with 30 samples.

Results

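The genes described here are 10 immediate early genes, Fos, Fosb, Jun, Junb, Jund, Egr1, Ier2, Dusp1, Atf3 and Nr4a1, followed through platelets and peripheral blood mononuclear cells (PBMCs) of mice with or without B16F10 melanoma cells. They were taken by name, as textbook immediate early genes, and are 10 of the 54532 genes in the count tables; all 10 were found there and all 10 passed the filter on low counts in every comparison.

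Immediate early genes are transcribed within minutes of a stimulus, without new protein synthesis, from transcription factors already in the cell, and their messages are short-lived. Fos and Fosb pair with the Jun proteins Jun, Junb and Jund to form AP-1, Egr1 is a zinc-finger factor of the same wave, and Atf3 and Nr4a1 are a stress-induced bZIP factor and an orphan nuclear receptor. Ier2 encodes a short nuclear protein, and Dusp1 encodes a phosphatase that switches off the MAP kinases that start the wave. Circulating platelets have no nucleus and carry messages packed into them by megakaryocytes, whereas PBMCs transcribe these genes and can also do so while blood is handled.

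Female C57BL/6 mice aged 6 to 8 weeks received 100000 B16F10 cells per mouse (O group, optimal inoculation), 2000 cells per mouse (S group, suboptimal inoculation) or HBSS buffer alone (C group), under the skin in a volume of 100 µl. Blood was collected on day 14; by then tumors could be felt in the O group, while none was seen in the S group. B16F10 is a mouse melanoma cell line that grows in this strain. By the study's description only some mice given the smaller number form visible tumors, so an S group pool may hold both kinds of mice. Platelets were prepared from platelet-rich plasma by centrifugation and PBMCs with an isolation kit from the layer that the first spin of the blood left below the plasma, and their RNA was pooled over mice before poly-A selected RNA-seq, with 5 libraries per group and tissue. By the labels a pool held 3 to 5 mice in the O group, 5 to 10 mice in C group platelets, 5 mice in C group PBMCs, 10 mice in S group platelets and 4 to 5 mice in S group PBMCs. A pool gives no spread between mice, so each P value below compares pools, and the 3 comparisons within a tissue share the libraries of their groups.

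The libraries held 12259036 to 25360080 counts in platelets and 13390983 to 15973449 in PBMCs. The 10 genes took 0.0210% to 0.0591% of the counts in platelets and 0.287% to 0.866% in PBMCs. Platelet libraries carried their label's markers: 15 of the 15 platelet markers tested were higher than in PBMCs, with a summed level of 24111 to 109280 CPM (counts scaled to a common library size with TMM factors) against 775 to 7921 CPM. Of 8 monocyte markers 7 were lower in platelets than in PBMCs (median log2 fold change -2.38); the eighth was not called, and all were detected, Csf1r at 7.17 to 77.8 CPM in platelets and 388 to 699 CPM in PBMCs and Lyz2 at 512 to 3128 CPM and 1946 to 5215 CPM. B cell markers summed to 546 to 2039 CPM in platelets and 1232 to 2395 CPM in PBMCs, and T cell markers to 156 to 389 CPM and 405 to 841 CPM. NK cell markers summed to 52.8 to 221 CPM and 125 to 318 CPM, and neutrophil markers to 231 to 5271 CPM and 253 to 4194 CPM. The part of other cells in the platelet levels of the 10 genes was not tested. Hemoglobin genes took 4.02% to 39.0% of platelet counts and 3.23% to 24.5% of PBMC counts. In platelets of the O group, the library of replicate 1 stood apart, with the highest hemoglobin share (39.0%) and a summed level of 10 neutrophil markers of 5271 CPM, against 231 to 1089 CPM in the other platelet libraries. This library also had the smallest TMM factor of the 30 libraries (0.386), which raises its CPM relative to its counts. In PBMCs of the S group, the library of replicate 3 had 32900 genes with a count, against 20540 to 22991 in the other PBMC libraries. In bulk RNA, fewer cells of a type and less RNA per cell cannot be told apart.

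The promoter windows of 6 of these genes are shown. Jun, Junb, Dusp1, Atf3 and Nr4a1 are those with a window among the genes that varied with the replicate number in PBMCs, Jun being also the gene called in platelets, and Fos is the reference for the correlations given later. RefSeq promoter windows (GRCm38.p6) were found for 8 of the 10 genes, Egr1 and Ier2 not being among them. Each window is the 250 bases before the RefSeq start, 5′ to 3′ on the gene's strand, in lower case, and capitals mark TGACG or its reverse complement CGTCA, the core of the cAMP response element bound by CREB and ATF factors. The Dusp1 window is cut to its first 203 bases, where an annotated exon begins, and the windows of Dusp1, Atf3 and Nr4a1 lie within the span of a longer transcript.
Fos (chr12:85473640-85473889, plus strand): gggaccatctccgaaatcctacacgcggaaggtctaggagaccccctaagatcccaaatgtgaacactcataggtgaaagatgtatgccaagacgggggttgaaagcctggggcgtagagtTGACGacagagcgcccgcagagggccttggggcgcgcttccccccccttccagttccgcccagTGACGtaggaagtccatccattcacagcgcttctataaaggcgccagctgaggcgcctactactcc
Jun (chr4:95052223-95052472, minus strand): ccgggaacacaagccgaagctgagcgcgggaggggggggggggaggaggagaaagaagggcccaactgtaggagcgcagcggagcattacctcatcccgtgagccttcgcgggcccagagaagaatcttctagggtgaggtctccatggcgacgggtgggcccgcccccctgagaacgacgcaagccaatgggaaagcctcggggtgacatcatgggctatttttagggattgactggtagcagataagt
Junb (chr8:84978749-84978998, minus strand): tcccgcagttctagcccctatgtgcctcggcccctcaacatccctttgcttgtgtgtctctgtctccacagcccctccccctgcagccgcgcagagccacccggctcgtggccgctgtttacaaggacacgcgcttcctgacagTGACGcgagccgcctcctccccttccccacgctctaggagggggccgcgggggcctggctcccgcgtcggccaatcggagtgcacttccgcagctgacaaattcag
Dusp1 (chr17:26508520-26508722, minus strand): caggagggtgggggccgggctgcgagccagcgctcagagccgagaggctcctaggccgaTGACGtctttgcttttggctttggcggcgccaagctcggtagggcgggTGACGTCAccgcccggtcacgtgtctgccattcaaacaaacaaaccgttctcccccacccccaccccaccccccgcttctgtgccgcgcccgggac
Atf3 (chr1:191183334-191183583, minus strand): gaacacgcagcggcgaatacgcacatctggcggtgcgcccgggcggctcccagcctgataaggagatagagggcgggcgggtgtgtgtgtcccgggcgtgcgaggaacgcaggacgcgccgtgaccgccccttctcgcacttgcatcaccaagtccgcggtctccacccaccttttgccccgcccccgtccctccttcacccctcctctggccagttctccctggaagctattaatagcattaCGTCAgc
Nr4a1 (chr15:101266596-101266845, plus strand): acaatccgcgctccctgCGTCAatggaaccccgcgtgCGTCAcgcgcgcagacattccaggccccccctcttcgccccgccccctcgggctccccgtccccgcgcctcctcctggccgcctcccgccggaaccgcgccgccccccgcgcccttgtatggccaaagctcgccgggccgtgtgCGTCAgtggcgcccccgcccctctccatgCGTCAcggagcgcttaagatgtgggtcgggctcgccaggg
TGACG or CGTCA was present in 6 of the 8 windows (Fos, Fosb, Junb, Dusp1, Atf3 and Nr4a1), and in 17.8% of all 32851 RefSeq windows of 250 bases. The Nr4a1 window held 4 copies, Dusp1 3 and Fos 2. The full palindrome TGACGTCA, which contains both cores, was present in the Dusp1 window alone among the 8, and in 1.55% of all windows. The Jun and Jund windows held neither. The Jund window ends at chr8:70697738, while GENCODE starts the gene at chr8:70698949, so this window does not adjoin the annotated start. These matches are letters in a window and not measured sites. In GENCODE M21 (GRCm38) Fos lies on chr12:85473890-85477273, Jun on chr4:95049034-95052222 and Jund on chr8:70698949-70700616.

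The level of 9 of the 10 genes was lower in platelets than in PBMCs, and Jund was the exception. Fos, the c-Fos subunit of AP-1, measured 5.47 to 148 CPM over the 15 platelet libraries, with a median of 34.0, and 337 to 843 CPM over the 15 PBMC libraries, with a median of 540.3. Junb measured 52.4 to 213 CPM in platelets (median 111) and 518 to 1661 CPM in PBMCs (median 998). The Fos ranges of the tissues did not overlap, nor did those of Junb.
With edgeR's quasi-likelihood test over all 30 libraries and Benjamini-Hochberg adjustment over 16498 genes, Fosb had the lowest platelet level relative to PBMCs (log2 fold change -4.41, SE 0.26, adjusted P = 2.09e-15). Atf3 followed at -3.96 (SE 0.26, adjusted P = 1.05e-14). The phosphatase gene Dusp1 was at -3.76 (SE 0.28, adjusted P = 1.53e-13) and Fos at -3.72 (SE 0.34, adjusted P = 2.95e-11). Nr4a1 and Junb differed by -3.59 (SE 0.20, adjusted P = 3.1e-16) and -3.17 (SE 0.20, adjusted P = 7.93e-15). The difference was smaller for Jun (-2.68, SE 0.11, adjusted P = 1.42e-18), Egr1 (-2.23, SE 0.35, adjusted P = 1.09e-06) and Ier2 (-2.20, SE 0.12, adjusted P = 4.24e-16). Of all genes tested 45.2% were lower in platelets at the same threshold, and the median log2 fold change of all genes was -0.17 against -3.38 for the 10.
Jund measured 99.6 to 146 CPM in platelets and 93.8 to 149 CPM in PBMCs, and the ranges overlapped almost fully (log2 fold change -0.038, SE 0.074, adjusted P = 0.635). The sign of the Jund difference turned with other scalings, 5 of the 7 alternatives placing it above 0, whereas the other 9 genes were lower in all 7. When libraries were scaled to their totals alone, a choice made after seeing the data, the median of all genes moved to -1.38 and Jund too was called lower. For 8 of the 10 genes, all but Jund and Egr1, the highest platelet library lay below the lowest PBMC library, which 13% of all genes did.

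**Figure D1:**
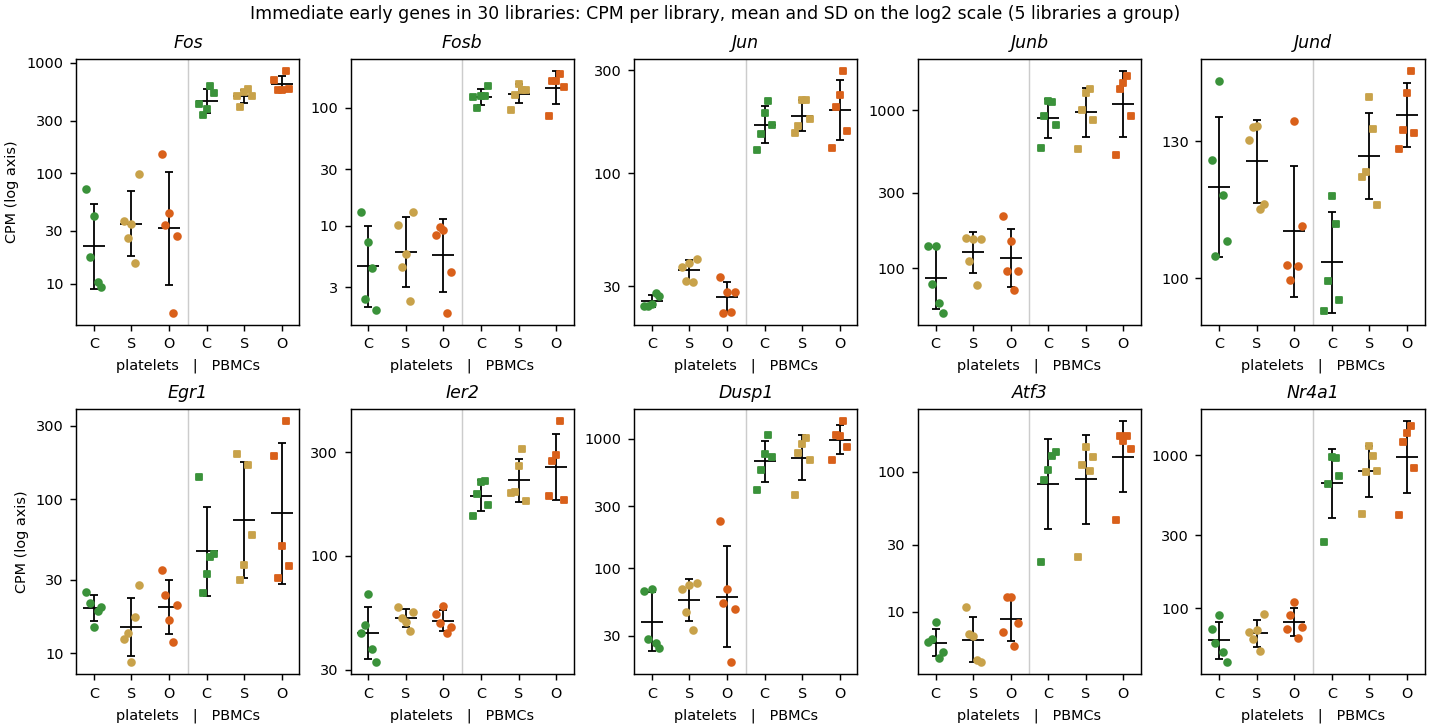
Level of each gene in every library, in CPM on a log axis that differs between panels. Circles are platelet libraries and squares PBMC libraries, coloured by group (C, S, O), and the black marks give the mean and SD on the log2 scale (n = 5). For 8 genes all platelet libraries lie below all PBMC libraries, while the Jund panel spans only 93.8 to 149 CPM.

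Per kilobase of exon the order of the genes differed between tissues. In platelets Jund was the most abundant, at a level of 71.1 ± 8.75 CPM per kb (mean ± SD, n = 15), followed by Junb (50.7 ± 19.6) and Ier2 (32.5 ± 5.67). Nr4a1 (20.4 ± 4.96), Dusp1 (18.8 ± 15.3) and Fos (17.6 ± 16.4) came next and lay within 1 SD of each other. Jun (9.24 ± 1.77), Egr1 (4.26 ± 1.52), Atf3 (3.41 ± 1.29) and Fosb (1.04 ± 0.622) were lowest.
In PBMCs Junb led at 453 ± 152 CPM per kb. Dusp1 (249 ± 82.3), Nr4a1 (249 ± 103) and Fos (229 ± 54.5) followed within 1 SD of each other, then Ier2 (151 ± 46.1). Jund was sixth there (73.4 ± 10.3), close to Jun (58.7 ± 14.0) and Atf3 (53.3 ± 23.9), and Fosb (22.1 ± 4.83) and Egr1 (20.9 ± 19.9) had the lowest levels. The smallest platelet counts behind these levels were 19 reads for Fosb and 37 for Atf3 in a library, and at least 66 for the others.

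In PBMCs, all 10 genes had a log2 fold change above 0 for the O against the C group, as had 50.3% of all genes, and Fos, Jund, Ier2 and Dusp1 passed the threshold used here, an unadjusted P under 0.05, which 11.9% of all 14726 genes tested did. With edgeR 1759 genes passed unadjusted and 0 after adjustment, and the adjusted P of the 4 genes was 0.337 to 0.41.
Jund encodes the AP-1 subunit that resting cells already hold, and it had the smallest P of all genes in this comparison. Its level was 93.8, 99.4, 117, 111 and 95.9 CPM in the C group libraries of replicates 1 to 5, 121, 123, 142, 133 and 115 in the S group and 128, 133, 143, 149 and 132 in the O group. All 5 O group libraries were above all 5 C group libraries, which 0.462% of genes showed in this direction, and the S group lay between them and overlapped both. Jund was higher in the O group by edgeR's quasi-likelihood test (log2 fold change 0.46, SE 0.087, adjusted P = 0.337, Benjamini-Hochberg over 14726 genes), and it stayed below an unadjusted P of 0.05 in all 18 alternatives. Its adjusted P over them ran from 0.000376, with DESeq2, to 0.618.
Fos measured 427, 337, 383, 619 and 537 CPM in the C group and 699, 567, 569, 843 and 582 CPM in the O group. Only C group replicate 4 reached into the range of the O group, and Fos was higher in the O group (log2 fold change 0.57, SE 0.19, adjusted P = 0.346, edgeR), in 5 of 5 same-numbered pairs of libraries, as were 4.86% of genes, and in all 18 alternatives.
Ier2 measured 152, 193, 219.6, 221 and 171 CPM in the C group and 188, 272, 292, 419 and 180.1 CPM in the O group. The ranges overlapped, with O group replicate 4 well above the rest (log2 fold change 0.55, SE 0.22, adjusted P = 0.381, edgeR). This call was lost without O group replicate 3 or 4 or C group replicate 1, 2 or 5, where the log2 fold change was 0.32 to 0.55.
Dusp1 measured 400.2, 570.2, 762, 1074 and 724 CPM in the C group and 687, 1073, 1044, 1381 and 869 CPM in the O group. Here too the ranges overlapped (log2 fold change 0.57, SE 0.25, adjusted P = 0.41, edgeR). The call was lost in the fit of all 3 groups and without O group replicate 2, 3 or 4 or C group replicate 1, 2, 3 or 5, where the log2 fold change was 0.42 to 0.61.
The 6 other genes had log2 fold changes of 0.31 (Jun) to 1.25 (Egr1) and did not pass, although Atf3 and Nr4a1 too were higher in the O group in 5 of 5 same-numbered pairs. With the replicate number fitted as a block, Jun, Junb, Atf3 and Nr4a1 passed as well, beside 12.2% of all genes (edgeR). None passed after adjustment (adjusted P = 0.403 to 0.405 for these 4, edgeR with the block). These libraries did not all pair by number (lowest r 0.0405). Limma voom with sample weights called 8 of the 10, beside 14.8% of all genes. Without O group replicate 1, 7 of the 10 passed, and without O group replicate 3 or 4 or C group replicate 2 or 5, 2 did.
Other messages also moved with the O group. All 8 erythroid markers were higher than in the C group, and their summed level was 40138 to 293458 CPM against 19123 to 59297 CPM. Of 8 T cell markers 7 were lower (405 to 562 CPM against 542 to 729 CPM in sum), as were 3 of 8 NK cell markers (125 to 239 CPM against 200.1 to 318 CPM), beside 4.39% of all genes. Of 10 neutrophil markers 1 was higher (321 to 4194 CPM in sum against 253 to 1487 CPM), a share close to the 7.56% of all genes that were. No marker of these 4 lists was at 0 in any PBMC library, and their part in the result was not tested.

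Between the S and C groups in PBMCs, Jund alone passed the threshold, which 2.64% of 15139 genes did (log2 fold change 0.30, SE 0.088, adjusted P = 0.9999, edgeR). Its level was higher in the S group in 5 of 5 same-numbered pairs, which 3.3% of genes showed, although the lowest S group library (115 CPM) lay below the highest C group library (117 CPM). The other 9 genes had log2 fold changes of 0.094 (Fosb) to 0.79 (Egr1), all above 0, as were 54.1% of all genes, whose median was 0.0093. Without C group replicate 1, 2 genes passed. The highest S group level of Jund was that of replicate 3, the library with the most genes detected, and without it Jund still passed, at a log2 fold change of 0.25 (edgeR; not past the threshold after adjustment).
Same-numbered PBMC libraries of these groups deviated together (r = 0.269 to 0.559 over all genes), so the replicate number was also fitted as a block. With the block 5 genes passed, where 4.3% of all genes did. They were Jund (log2 fold change 0.30, SE 0.051, adjusted P = 0.249, edgeR with the block), Nr4a1 (0.26), Ier2 (0.24), Egr1 (0.68) and Jun (0.14). Their adjusted P with the block was 0.249 for Jund and 0.977 to 0.999 for the others, so none passed after adjustment; without the block 5 genes in all (0.033%) did, none of them among the 10. Egr1, which marks the first wave after growth factor signals, was higher in the S group in 5 of 5 pairs, at 197, 29.8, 37.1, 167 and 58.4 CPM against 139, 24.4, 32.5, 42.0 and 43.8 CPM. The gap was largest at replicate 4, and neutrophil markers summed to 2379 CPM in that S group library and 1487 CPM in its C group counterpart, where the other libraries of these groups held 253 to 848 CPM. Their part in the difference was not tested.

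Between the S and O groups in PBMCs, all 10 genes had a log2 fold change below 0, where 49.8% of genes lay above it, and Fos alone passed, beside 12.2% of 14686 genes (log2 fold change -0.44, SE 0.16, adjusted P = 0.331, edgeR). A count of 1 in 10 is close to that share. Fos measured 497, 399.8, 540.3, 579 and 498 CPM in the S group, below the same-numbered O group library in 5 of 5 pairs, and S group replicate 4 alone reached into the O group's range. Without O group replicate 1, 3 genes passed, and without S group replicate 3, 2 did.
The libraries paired by number here as well (r = 0.109 to 0.389). With the block 8 genes were lower in the S group, as were 8.47% of all genes, where 13.8% passed in either direction. The differences ran from -0.60 for Atf3 (SE 0.16, edgeR with the block) and -0.53 for Dusp1 (SE 0.14) to -0.18 for Jund (SE 0.070). Fos, Fosb, Junb, Ier2 and Nr4a1 made up the rest, Fosb just inside the threshold. Jun and Egr1 did not pass, and the adjusted P of the 8 was 0.34 to 0.36. Without the block, all 8 erythroid markers were lower in the S group (19843 to 55526 CPM in sum) than in the O group, as were 3 of 10 neutrophil markers (266 to 2379 CPM in sum), beside 7.8% of all genes. Of the lymphocyte lists, 7 of 8 T cell markers (569 to 841 CPM in sum against 405 to 562) and 8 of 8 NK cell markers (263 to 312 CPM against 125 to 239) were higher in the S group, beside 4.43% of all genes. With the block 5 of 8 erythroid, 5 of 8 monocyte (2026 to 3839 CPM in sum against 3310 to 4581) and 0 of 10 neutrophil markers were lower. Higher were 8 of 8 T cell and 8 of 8 NK cell markers, beside 5.3% of all genes. The part of these cells was not tested.

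**Figure D2:**
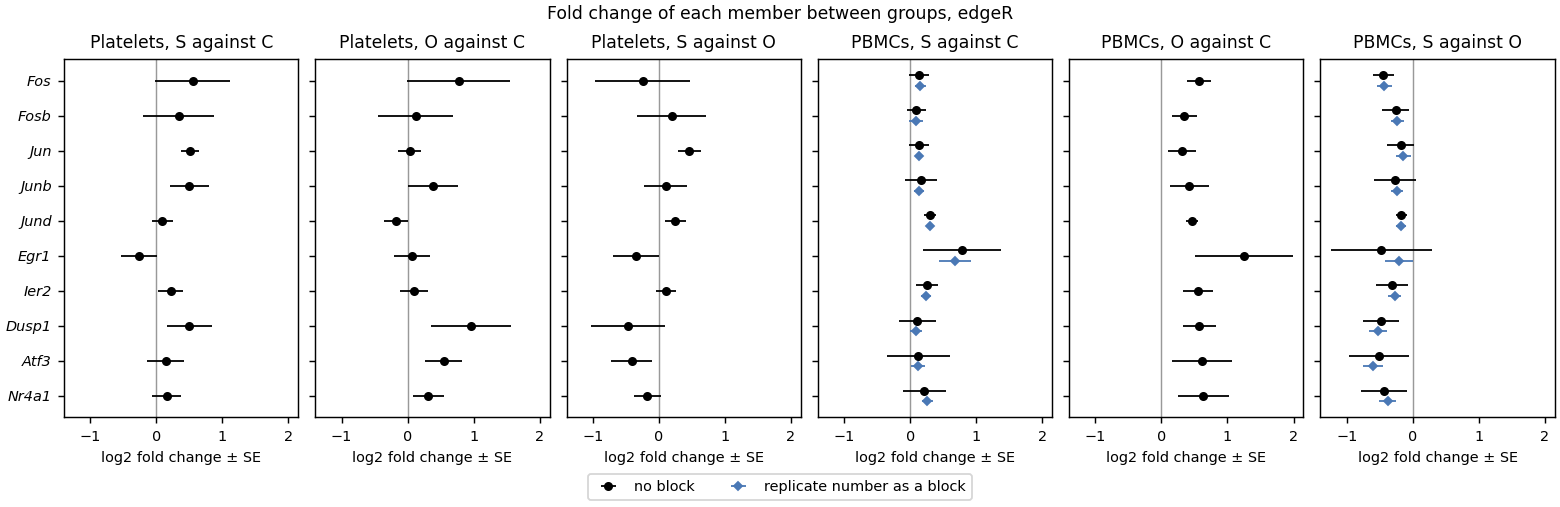
Log2 fold change of each gene with its SE from edgeR in the 6 comparisons of groups (5 libraries against 5). Black circles are fits without a block, and blue diamonds, in the PBMC comparisons whose libraries paired by number, are fits with the replicate number as a block. In PBMCs all 10 genes lie above 0 for O against C and below 0 for S against O, and in platelets Jun has a small SE beside Fos, Fosb and Dusp1.

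In platelets, Jun alone of the 10 genes passed the unadjusted threshold with edgeR between the S group and each of the other groups. A count of 1 in 10 is close to the 6.42% (against C) and 13.9% (against O) of all genes that passed. Limma voom with sample weights called 6 of the 10 against the C group, beside 15.7% of all genes, and 1 against the O group, beside 17%. Jun, the founding subunit of AP-1, measured 36.7, 31.9, 38.6, 31.3 and 39.9 CPM in the S group, 24.4, 24.3, 24.8, 28.0 and 27.0 CPM in the C group and 33.2, 22.7, 28.2, 22.8 and 28.3 CPM in the O group. Every S group library was above every C group library, which 0.55% of 13268 genes showed in this direction, and above 4 of the 5 O group libraries. Jun was higher in the S group than in the C group (log2 fold change 0.51, SE 0.14, adjusted P = 0.746, edgeR, over 13268 genes), and the call held in all 17 alternatives, whose adjusted P ran from 0.185 to 0.959. Of all genes 6.42% passed at this threshold and 1 gene (0.00754%) passed after adjustment, which was not among the 10.
Against the O group Jun was also higher in the S group (log2 fold change 0.46, SE 0.18, adjusted P = 0.31, edgeR, over 13306 genes), where 13.9% of all genes passed. This call was lost without O group replicate 2 or replicate 4, where the log2 fold change was 0.38 in both. Without S group replicate 1, 2 of the 10 genes passed. Other cells' markers moved here too, with 6 of 8 B cell (1011 to 2039 CPM in sum against 546 to 1197), 7 of 8 T cell (302 to 389 CPM against 156 to 287), 3 of 8 NK cell and 3 of 8 monocyte markers higher in S group platelets, beside 7.23% of all genes. Lower were 5 of 9 neutrophil and 2 of 8 erythroid markers, the latter at 140069 to 364587 CPM in sum against 74375 to 1069070, beside 6.67% of all genes. Their part in this Jun difference was not tested.
The other 9 genes did not pass between the S and C groups, with log2 fold changes of -0.27 (Egr1) to 0.55 (Fos), 8 of them above 0, where 48% of all genes lay. Junb (0.50, SE 0.30) and Dusp1 (0.50, SE 0.34) had a higher level in the S group in 5 of 5 same-numbered pairs, as 3.9% of all genes did. Without C group replicate 3, 4 of the 10 passed, and without C group replicate 1 or S group replicate 4 or 5, 2 did. Lymphocyte markers were higher in S group platelets as well: 4 of 8 B cell markers (1011 to 2039 CPM in sum against 992 to 1164) 3 of 8 T cell markers (302 to 389 CPM against 277 to 303) and 2 of 8 NK cell markers (102 to 221 CPM against 92.2 to 162) passed, beside 4.29% of all genes higher. None of these markers was at 0 in any platelet library, and their part in the Jun difference was not tested.

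Between the O and C groups in platelets none of the 10 genes passed, beside 4.79% of 13270 genes. With edgeR 635 genes passed unadjusted and 0 after adjustment, and of the 10 genes DESeq2 called 0 and limma voom with sample weights 3, beside 6.65% of all genes. The log2 fold changes ran from -0.18 (Jund) to 0.96 (Dusp1), and Jund alone was below 0, where 49.1% of all genes lay above it. Fos measured 72.2, 17.4, 41.0, 10.4 and 9.28 CPM in the C group and 148, 34.0, 43.4, 5.47 and 26.8 CPM in the O group, where replicate 1 was the highest and replicate 4 the lowest of all 15 libraries. The first rank rests on the TMM factor of O group replicate 1 (0.386), a library with 770 Fos reads among 13446756 counts. S group replicate 5 had 1335 Fos reads among 15416540 counts. Dusp1 measured 66.6, 28.3, 69.3, 26.5 and 23.9 CPM in the C group and 230.0, 53.9, 69.3, 18.7 and 48.5 CPM in the O group, again highest in replicate 1, the library with the high neutrophil and hemoglobin levels. Atf3 was higher in the O group in 5 of 5 same-numbered pairs, at 7.13, 12.8, 12.7, 5.63 and 8.24 CPM against 6.06, 6.33, 8.38, 4.64 and 5.14 CPM, as 5.73% of genes were (log2 fold change 0.54, SE 0.28, adjusted P = 0.91, edgeR). Without O group replicate 4 or C group replicate 3, 2 genes passed. Neutrophil markers summed to 525 to 5271 CPM in O group platelets and 231 to 1089 CPM in the C group, and 3 of the 9 tested were higher, beside 2.61% of all genes. Lower were 3 of 8 B cell markers (546 to 1197 CPM in sum against 992 to 1164) and 3 of 8 T cell markers (156 to 287 CPM against 277 to 303), beside 2.17% of all genes. The part of these cells in the levels of the 10 genes was not tested.

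The difference in response between the tissues was tested as an interaction over all 30 libraries and 16498 genes. The difference of Jund between the O and C groups was lower in platelets than in PBMCs (log2 fold change -0.53, SE 0.16, adjusted P = 0.537, edgeR interaction), with 6.59% of all genes passing, and the call held in all 36 alternatives. Its levels were 110.1 ± 14.7 CPM (SD, n = 5) in O group and 120.0 ± 16.7 CPM in C group platelets, against 137 ± 8.53 CPM and 103 ± 10.1 CPM in PBMCs.
The difference of Jun between the S and O groups was higher in platelets than in PBMCs (log2 fold change 0.53, SE 0.24, adjusted P = 0.336, edgeR interaction). Jun was 1 gene of 10, close to the 13.6% of all genes that passed. Its mean was 35.7 ± 3.91 CPM (SD, n = 5) in S group and 27.0 ± 4.40 CPM in O group platelets, against 187 ± 30.5 CPM and 204 ± 64.8 CPM in PBMCs. This call was lost in 10 of 36 alternatives. With the block described next the value was 0.50, and without any of PBMC O group replicate 3 or 4, PBMC S group replicate 1, 2 or 5, platelet O group replicate 2 or 4 or platelet S group replicate 1 or 5 the value was 0.35 to 0.52. For the S against the C group none of the 10 differed between tissues, where 5.38% of genes (887) passed unadjusted and 0 after adjustment with edgeR, and voom with sample weights called 1 of the 10, beside 12.6% of all genes.
PBMCs and platelets were taken from the same centrifuged blood, and O group pools of the same number held as many mice in both tissues, so libraries of the tissues may share mice, which the labels do not state and these tests do not model. With each group and number as a block, all 9 genes called between tissues kept their call and the Jund interaction stayed past the threshold (-0.53, adjusted P = 0.382, edgeR), but that of Jun did not. Same-numbered libraries of the tissues did not all deviate together (r = -0.115 to 0.609).

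In PBMCs most of these genes also varied with the replicate number. In the 3 libraries of replicate 1, from all 3 groups, Atf3 was low. It measured 22.6, 88.0, 103, 129 and 140.2 CPM in the C group, 24.6, 113, 152, 102 and 128 in the S group and 45.4, 181, 166, 180.0 and 146 in the O group, so that the replicate 1 library was the lowest of each group by a wide gap. Nr4a1 measured 272, 649, 975, 959 and 725 CPM in the C group, 415, 779, 1148, 990.0 and 792 in the S group and 407, 1221, 1394, 1540.0 and 822 in the O group. Junb measured 577, 926, 1148, 1135 and 808 CPM in the C group, 567, 998, 1293, 1373 and 873 in the S group and 518, 1370.0, 1489, 1661 and 916 in the O group. For both genes replicate 1 was the lowest of every group and the libraries of replicates 3 and 4 the highest.
Egr1 ran otherwise. Against the 139, 24.4, 32.5, 42.0 and 43.8 CPM of the C group and the S group values given above, it measured 190.1, 30.6, 49.9, 324 and 36.8 CPM in the O group, high at replicate 1 in all 3 groups and at replicate 4 in the S and O groups. Neutrophil markers summed to 4194, 597, 341, 3426 and 321 CPM in the O group libraries in the same order. They summed to 848, 253, 400.0, 1487 and 283 CPM in the C group and 645, 376, 539, 2379 and 266 CPM in the S group. In the C group the sum was highest at replicate 4, where Egr1 measured 42.0 CPM. In all, 7 of the 10 markers varied with the replicate number. Their part in the Egr1 levels was not tested.
In edgeR's test of the replicate number with the group in the fit, added after the data had been seen, 7 of the 10 genes varied with the number at an adjusted P under 0.05, as 6.63% of 15398 genes did. Nr4a1 (adjusted P = 0.00105, edgeR), Junb (0.00124) and Atf3 (0.00157) ranked 30, 32 and 44 among all genes, and Jun, Egr1, Ier2 and Dusp1 also passed. Without replicate 1, 1 of the 10 passed. The group, with the number in the fit, gave an unadjusted P under 0.05 for 8 of the 10, beside 15.5% of all genes, and none after adjustment. In platelets the number gave 4 genes (Fos, Junb, Dusp1 and Atf3) at an unadjusted P under 0.05, beside 8.94% of 13878 genes, and none after adjustment. The labels do not say what a number marks, and the study describes the 5 samples of a group as independent experiments.

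**Figure D3:**
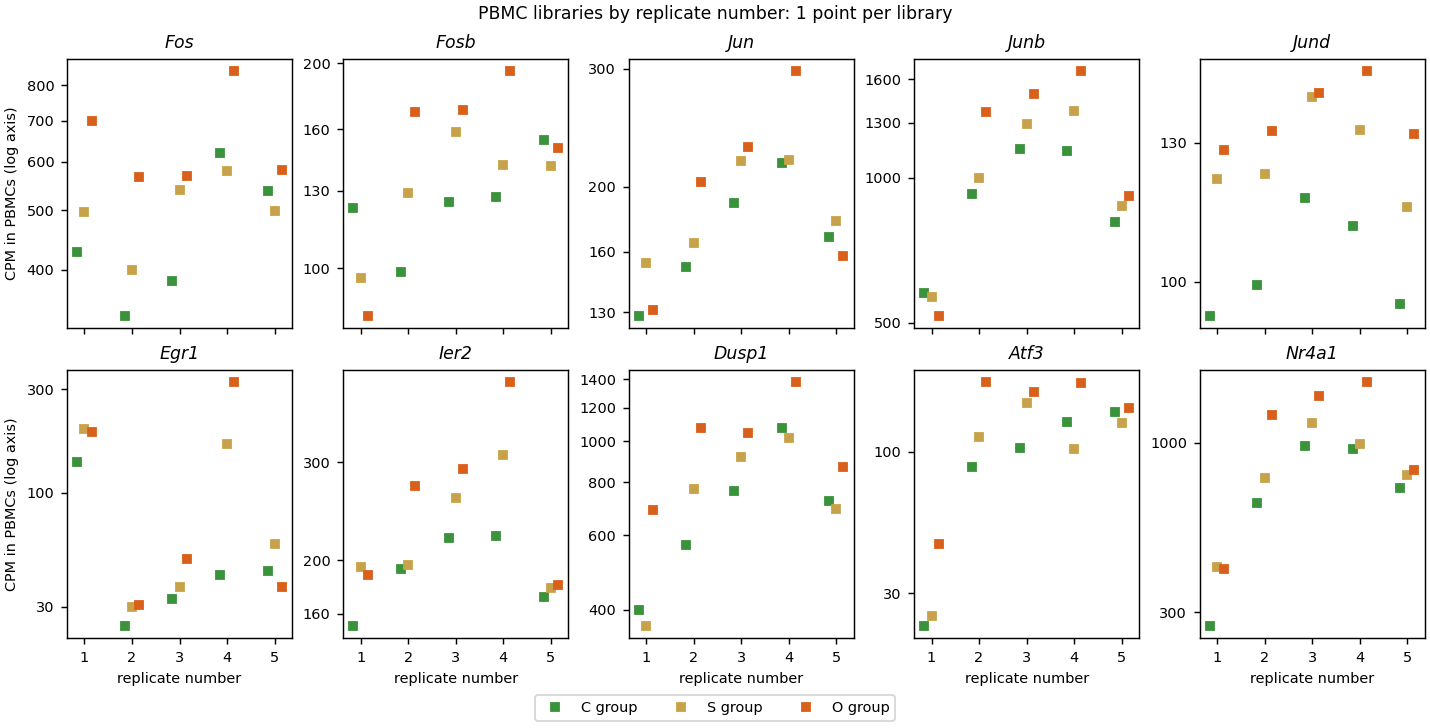
Level of each gene in the 15 PBMC libraries by replicate number, in CPM on a log axis that differs between panels, with 1 square per library coloured by group. Atf3, Nr4a1 and Junb are lowest at replicate 1 in every group, and Egr1 is high at replicate 1 in every group and at replicate 4 in the S and O groups.

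Divided by sums of squares of log2(CPM + 1), the replicate number took 87.3% of the spread of Junb over the 15 PBMC libraries, 84.1% of Atf3 and 81.4% of Nr4a1, against 36.9% for the median gene. Jund was the reverse, with 72.3% taken by the group and 22.4% by the number, and Fos had 47.0% by group. The median gene had 14.0% by group. In platelets the group took 58.3% of the spread of Jun and 3.14% to 26.9% of that of the other 9 genes, where the median gene had 14.3%. The number has more levels (5) than the group (3).

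**Figure D4:**
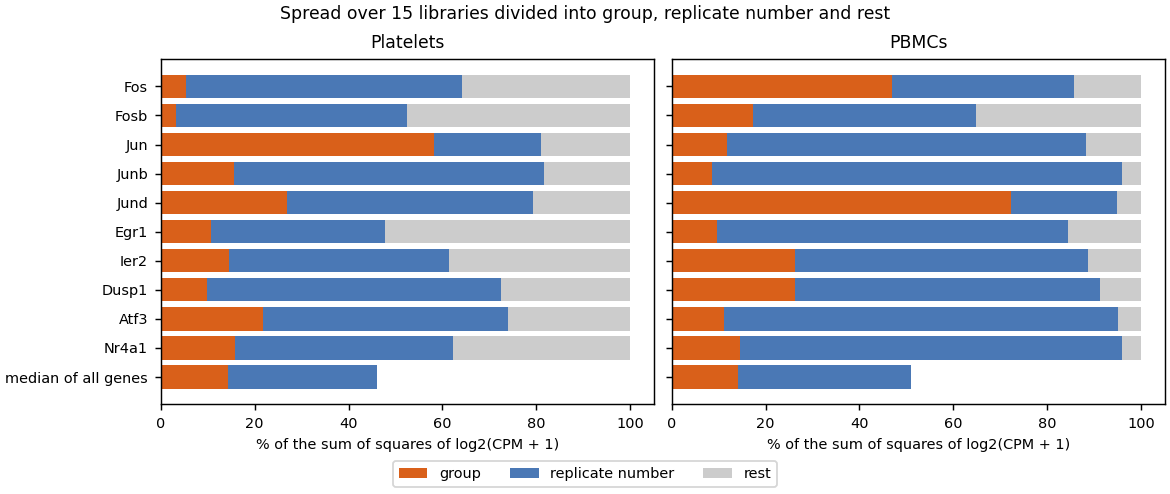
Share of the sum of squares of log2(CPM + 1) over 15 libraries that goes with the group (orange), the replicate number (blue) and neither (grey), for each gene in platelets and PBMCs; the last bar gives the medians of all genes for group and number. Group takes the largest share for Jun in platelets (58.3%) and for Jund (72.3%) and Fos (47.0%) in PBMCs.

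Within groups, the platelet levels of 6 of the other 9 genes correlated with Fos, the relation of the sixth, Egr1, being lost in most fits that left out a library. Over 15 platelet libraries, centred on group means, Fos correlated with Dusp1 (Pearson's r = 0.95, permutation P = 1e-05, the smallest that 100000 permutations can give, Spearman's rho = 0.96, P = 1e-05) and Junb (r = 0.92, permutation P = 2e-05, rho = 0.94, P = 1e-05). Of the 13868 genes tested outside the 10, 0.0144% had an r with Fos at or above that of Dusp1 and 0.108% at or above that of Junb. Adjusted over the 18 relations computed, both had a permutation P = 0.00018 for r. Without the 2 libraries farthest from the median of Fos, O group replicates 1 and 4, r was 0.91 for Dusp1 and 0.90 for Junb.
Fosb (r = 0.86, rho = 0.86, adjusted permutation P = 0.00048), Nr4a1 (r = 0.75, rho = 0.83, adjusted P = 0.0144) and Ier2 (r = 0.70, rho = 0.84, adjusted P = 0.0144) also passed, and without those libraries r was 0.89, 0.89 and 0.69. Of all genes outside the 10, 0.699%, 3.14% and 4.75% had an r with Fos at or above these values of Fosb, Nr4a1 and Ier2. Egr1 passed by r (0.67, adjusted permutation P = 0.043) but not by rho (0.34, adjusted P = 0.33), and its r fell to 0.38 without the 2 libraries. With this centring the call was also lost on leaving out any single library among O group replicates 1 to 5, C group replicate 1 or S group replicate 1, 2 or 5 (r = 0.52 to 0.70), with hemoglobin genes left out (0.65) and with no centring (0.56); 5.94% of genes had an r with Fos at or above 0.67. With the levels also centred on the replicate number, Egr1 had the highest r of the 9 (r = 0.93, rho = 0.91, adjusted permutation P = 9e-05). For this centring the permutations were made within groups only and did not keep the number, so its P values may be too small. The Nr4a1 relation was lost without S group replicate 5 (r = 0.70) and that of Ier2 with that further centring (r = 0.59). Jun (0.66), Jund (0.50) and Atf3 (0.36) did not pass. In platelet replicates 1 to 5 neutrophil markers summed to 671, 310, 1089, 259 and 231 CPM in the C group. The sums were 328, 508, 304, 303 and 414 CPM in the S group and 5271, 1008, 736, 525 and 599 CPM in the O group. The part of other cells in these correlations was not tested.
In PBMCs none of the 9 passed by r. Egr1 came closest (r = 0.59, permutation P = 0.0316, adjusted P = 0.071, rho = 0.65, adjusted P = 0.0418), and r for Dusp1 was 0.44, for Junb 0.12 and for Atf3 0.10. This depended on the centring. With the levels also centred on the replicate number, 2 of the 9 passed by r, Atf3 (r = 0.98, rho = 0.96, adjusted permutation P = 9e-05) and Dusp1 (r = 0.79, rho = 0.77, adjusted permutation P = 0.0101), and r for Junb was 0.0036. These P values too may be too small, since the permutations did not keep the number. Whether the tissues differ in these correlations was not tested. Over all 45 pairs of the 10 genes the median r was 0.60 in platelets and 0.66 in PBMCs, as a description. The highest PBMC pair was Junb with Nr4a1 (0.95) and the lowest Egr1 with Atf3 (-0.59), as in the levels by replicate number above. Centred also on the number, the median r was 0.47 in platelets and 0.34 in PBMCs, and the highest PBMC pair was Fos with Atf3.
The genes outside the 10 whose platelet levels were most like their mean over 15 libraries were Metrnl (r = 0.98), Ccl6 (0.97), Lilra6 (0.95), Tgfbi (0.95) and Sirpb1b (0.94), of 13868 genes. Lilra6 and Sirpb1b belong to families of similar genes, among which reads can be split. In PBMCs they were Zfp36 (r = 0.98), Ccl3 (0.95), Ccl4 (0.95), Nlrp3 (0.94) and Osm (0.93), of 15388 genes.

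**Figure D5:**
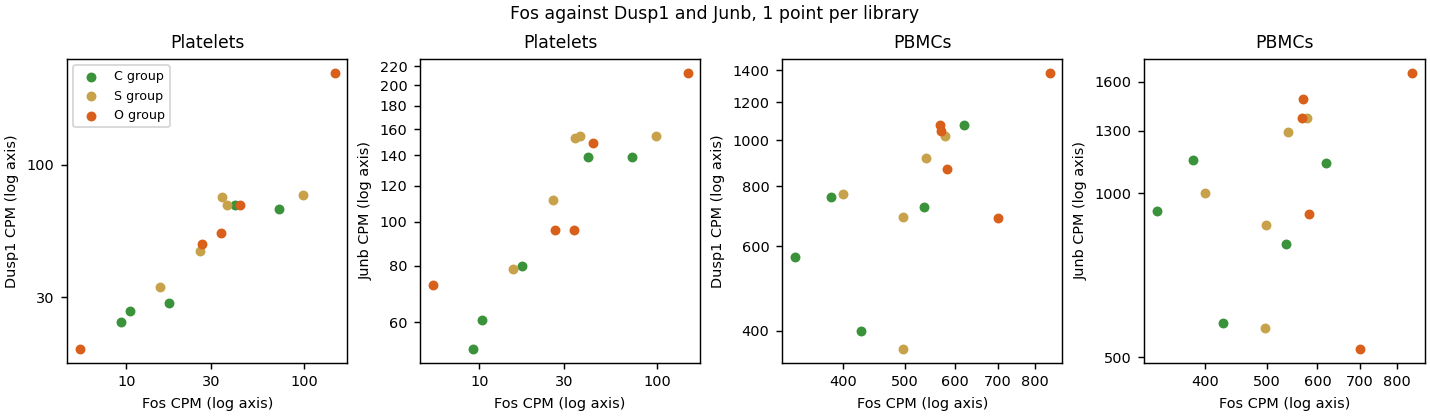
Fos against Dusp1 and Junb in platelets (left) and PBMCs (right), in CPM on log axes, with 1 point per library coloured by group. In platelets the points lie along a line for both genes (r = 0.95 and 0.92 within groups), and in PBMCs they scatter (0.44 and 0.12 within groups, 0.79 and 0.0036 when also centred on the replicate number).

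The wider set of early genes is given by 4 lists, tested with edgeR as above. Of 47 other immediate early genes, 44 were tested in PBMCs and 13 were higher in the O group than in the C group, with 0 lower, beside the 7.56% of all genes given above. Their median log2 fold change was 0.43 against 0.0015 for all genes. The smallest P values belonged to Klf10 (log2 fold change 0.49, edgeR), Mafk (0.65) and Mcl1 (0.41). Klf10 and Mafk encode transcription factors and Mcl1 an inhibitor of apoptosis. Of 18 early NF-kB response genes 1 was higher, the chemokine gene Cxcl2 (1.66). In this comparison 2 of 19 upstream kinases and factors were higher, Map2k2 (0.71) and Mapk14 (0.23), which encode kinases of the ERK and p38 cascades. Of 11 heat shock genes 3 were higher and 1 lower, beside 4.39% of all genes lower, with Hspa1b at 1.70; Hspa1a and Hspa1b are near-identical copies between which reads can be split.
Between the S and C groups in PBMCs, 6 of 11 heat shock genes were higher, beside 1.23% of all genes, and the list's median log2 fold change was 0.25. The smallest P values were those of Hspa1b (1.03, edgeR), Dnaja1 (0.36) and Hsp90aa1 (0.25), which encode chaperones. Of the other immediate early genes 1 of 44 was higher, Ier5 (0.26), and of the NF-kB and kinase lists 0 of 17 and 0 of 19. With the block 8 of 11 heat shock, 8 of 44 other immediate early and 5 of 17 NF-kB genes were higher, beside 2.5% of all genes.
Between the S and O groups in PBMCs, 5 of 44 other immediate early genes were lower and 0 higher, beside 7.8% of all genes lower, with Klf10 at -0.43. Gadd45a was at -2.50 and Mafk at -0.54. With the block 22 of 44 were lower, beside the 8.47% of all genes given above. Of the kinase list Mapk14 (-0.21) and Map2k2 (-0.69) were lower, and of the NF-kB and heat shock lists 0 of 18 and 0 of 11 passed without the block. With it 1 of 19 genes of the kinase list and 5 of 18 NF-kB genes were lower, and 0 of 11 heat shock genes passed.
In platelets of the S group 4 of 12 heat shock genes were higher than in the C group, beside 4.29% of all genes. Hspa1b (1.95, edgeR), Hspa1a (1.46) and Dnajb1 (0.54) led. Of the NF-kB list 5 of 16 were higher, led by Ccl4 (1.09), Icam1 (0.85) and Cd83 (0.46). Of 46 other immediate early genes 3 were higher and 2 lower, beside 2.13% of all genes lower, including Zfp36 (0.52), Myc (-0.37) and Ccn1 (-0.72), and of 19 upstream kinases and factors 0 passed.
Against the O group, S group platelets had 5 of 16 NF-kB genes higher and 1 lower, where the shares of all genes were those given above, with Icam1 at 1.31 and Cd83 at 0.93. Of 46 other immediate early genes 1 was higher and 3 lower, with Cebpb at -0.69, and Elk1 (0.55) and Hspb1 (0.86) were the genes called of the kinase and heat shock lists. In O group platelets against the C group, where 2.61% of all genes were higher and 2.17% lower, 1 of 46 was higher and 1 lower, Fosl2, which encodes another Fos family subunit, at 1.00 and Dusp2 at -0.59, and Srf, the factor that starts Fos transcription, was the 1 of 19 upstream genes that was higher (0.50). Of the NF-kB list Cd83 was lower there (-0.49). The genes named from the lists in these pairs of groups had adjusted P values of 0.225 to 0.9999 (edgeR), so none passed after adjustment over all genes.
Between tissues the lists moved unequally. In platelets 32 of 46 other immediate early genes were lower than in PBMCs at an adjusted P under 0.05 and 6 higher. Among the higher was Ccn2, which encodes a secreted matrix protein and had the list's smallest P, at a mean of 2.70 CPM in platelets and 0.0105 CPM in PBMCs (adjusted P = 1.61e-15, edgeR). Of 18 NF-kB genes 16 were lower and 0 higher, but 10 of 12 heat shock genes were higher and 8 of 19 upstream kinases and factors were higher and 5 lower, beside 35.8% of all genes higher and 45.2% lower. Mapk3, which encodes an ERK kinase, was higher in platelets (log2 fold change 2.30, adjusted P = 6.51e-14, edgeR).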

How the data were processed

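Platelet and PBMC RNA from 30 pooled samples was sequenced from poly-A selected libraries that do not keep strand. The authors deposited raw counts per gene for each tissue; per the labels HISAT2 2.0.5 and featureCounts 1.5.0-p3 made them, and the study tested groups with DESeq2 1.16.1. The labels name mm9, yet 54409 of the 54532 gene IDs are in GENCODE M21 and 643 of 664 gene positions in the study's tables equal it, so GRCm38 positions were used. Platelet samples carry PBMC as their cell type, so their titles and source names, which say platelet, were followed. The methods list other numbers of mice than the labels for some S group platelet pools.

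Genes passing filterByExpr were TMM scaled and tested with edgeR 4.0.16 (quasi-likelihood F test, two-sided, R 4.3.3), each pair of groups alone and the tissues together, with Benjamini-Hochberg adjustment over all genes tested. Levels are TMM-scaled CPM. Members were called at an unadjusted P of 0.05 in pairs of groups, since the study's methods name P values under 0.05 and do not say at that step whether they were adjusted, and at an adjusted P of 0.05 between tissues. Same-numbered libraries were paired where every r of their deviations exceeded 0.1, which held for PBMC S and C (0.269 to 0.559) and S and O (0.109 to 0.389) alone. Correlations used log2(CPM + 1). Alternatives were DESeq2 1.42.0, RLE factors, no filter, limma 3.58.1 voom weights, hemoglobin genes left out, all groups in 1 fit, the replicate block and leaving out each library. On simulated counts for PBMCs, O against C, 58 of 97 genes changed by 1 on the log2 scale and 90 of 103 changed by 2 were recovered after adjustment over 14726 genes; for platelets, O against C, 12 of 103 and 67 of 97 were, over 13270 genes, and for the interaction, O against C, 22 of 108 and 56 of 92, over 16498 genes. The members, lists, rules and tests were chosen with earlier results of these data known. Full statistics are given for members past the threshold and counts and ranges for the others, with up to 3 genes named from each further list by the smallest P. Some genes that this rule would name are not reported here.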

Additional observations from a re-analysis of the deposited data

Results flagged for a closer look

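Of 60 sets of 5 libraries looked at (10 genes, 2 tissues, 3 groups), 3 held a library far from the other 4, where chance gives about 1 in 20. All 3 were Atf3 in PBMCs and all 3 were the library of replicate 1. In the C group that library measured 22.6 CPM against 88.0 to 140.2 CPM in the other 4, and its gap to the nearest was 0.742 of the group's range on the log2 scale. In the S group it measured 24.6 CPM against 102 to 152 CPM (gap 0.781 of the range), and in the O group 45.4 CPM against 146 to 181 CPM (gap 0.841 of the range).

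The interaction test between platelets and PBMCs called Jund, at -0.53 on the log2 scale for the O against the C group, and Jun, at 0.53 for the S against the O group, at an unadjusted P of 0.05 with edgeR; neither passed after adjustment over all genes. Each was 1 gene of 10, where 6.59% and 13.6% of all genes passed. The Jun call was lost with the replicate block (0.50) and on leaving out each of 9 libraries in turn (0.35 to 0.52).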

How the results depend on the processing

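The 9 genes lower in platelets than in PBMCs stayed so in all 37 alternatives. Of the called results and the levels of single genes, 735 kept direction and call, 38 lost the call, 14 values with no test moved and none reversed. The tissue difference of Jund, not called, is not among them, and its sign turned in 5 of 7 alternatives. Of the counts of genes called, 259 stayed within 1.5 times their value and 63 moved beyond it. With voom sample weights 6 genes passed in platelets for S against C (1 in the report), 3 for O against C (0), and in PBMCs 5 for S against O (1) and 8 for O against C (4). The shares of all genes passing with voom there were 15.7%, 6.65%, 14.6% and 14.8%. DESeq2 gave 2 for S against O in PBMCs. In the interactions voom gave 1 for S against C (0), and DESeq2, edgeR without the filter, RLE factors, voom and leaving out hemoglobin genes each gave 2 for S against O (1). With voom 12.6% and 16.1% of all genes passed in these 2 interactions.

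With the replicate block 3 genes passed in platelets for S against C and 1 for O against C, beside 5.77% and 6.5% of all genes. In PBMCs 5 passed for S against C, 8 for S against O and 8 for O against C, beside 4.3%, 13.8% and 12.2%. For O against C the block adds Jun, Junb, Atf3 and Nr4a1 (0.27 to 0.71 on the log2 scale) to the 4 passing without it. The interaction for S against O gave 0 with the block. With the block and without replicate 1, chosen after seeing the data, the PBMC counts were 5, 7 and 9, beside 4.25%, 10.2% and 9.02% of all genes. The platelet libraries and PBMC O and C share numbers but did not pair (lowest r -0.223 and 0.0405).

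Leaving out each library gave 1 to 4 genes for S against C, 0 to 2 for S against O and 0 to 2 for O against C in platelets, and 1 to 2, 1 to 3 and 2 to 7 in PBMCs. For the interactions it gave 0 to 1 (S against C), 0 to 2 (S against O) and 1 to 2 (O against C). Leaving out each number gave 1 to 7 genes varying with it in PBMCs. Without the filter, 4 genes varied with the number in platelets and 3 with the group, given the number, in PBMCs (0 each in the report). For correlations with Fos in PBMCs (0 in the report), no centring gave 4, centring also on the number 2 and leaving out each library 0 to 1; in platelets leaving out each library gave 4 to 7 (6). The cause of these moves was not tested.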
